A study of Mus musculus with 24 samples.

Results

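The genes described here are the C-type lectins, collectins and siglecs of the mouse, read on a microarray of glycobiology-related genes in retinas of P347S rhodopsin mutant mice and of normal mice. They were chosen by symbol: genes whose names start with Clec, Klr, Cd209, Colec or Siglec (Siglech excepted), together with Cd22, Cd33, Mag, Chodl, Cd207, Cd302, Cd69, Cd72, Cd93, Layn, Thbd, Mgl2, Asgr1, Asgr2 and Olr1. Of 97 such genes in the RefSeq gene table, 60 had a probe set that could be named on this array, out of 909 named genes in all. These 60 genes had 66 probe sets, and for the 6 genes with 2 probe sets the one with the higher mean signal was used.

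The study hybridised total RNA from retina to 24 arrays in 8 groups of 3. The mutant groups, which carry the P347S rhodopsin transgene (P347S+), and the normal groups (P347S-) were each sampled at 4 ages, monthly from 1 month to 4 months. The sex of the animals is listed as unknown, and the strain, the promoter of the transgene and any pooling of animals are not given in the sources used here. Nothing in them says that the replicates came from separate animals, so the p-values below measure only the spread between these arrays, which may be technical. The comparison asks which of these glycan-binding proteins differ between degenerating and normal retina in early, middle and late stages of photoreceptor loss.

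C-type lectins share a calcium-dependent carbohydrate-binding fold, although many members of the family bind proteins or lipids instead of sugars. The family includes the activating and inhibitory receptors of natural killer cells, the pathogen and danger sensors of myeloid cells, endocytic receptors of dendritic cells and hepatocytes, and soluble collectins of innate immunity. Siglecs are immunoglobulin-type lectins that bind sialic acid on cell surfaces, and most of them carry inhibitory signals into immune cells. In the retina, microglia are the resident immune cells that carry such receptors, and vessel walls carry thrombomodulin-like members.

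The promoters of the genes on which the results turn are shown first, since these genes moved in opposite directions. Chodl, Clec2d and Clec4a3 were higher in mutant retinas under nearly every setting tried, and Cd207 was the lower gene whose change held under most settings. Each stretch runs from 250 bases before the annotated start to 50 bases after it, in the direction of the gene, taken from RefSeq promoters on GRCm38.p6, and 46 of the 60 genes had an entry. Capitals mark every match, on either strand, to 6 motifs. They are the PU.1-type ETS motif GAGGAA, the AP-1 motif TGANTCA and the interferon-regulatory-factor type motif AANNGAAA. The others are the TATA box TATAAA, its variant form TATATAA and the GC box written as GGGCGG.
Chodl, chr16:78930698-78930997, plus strand: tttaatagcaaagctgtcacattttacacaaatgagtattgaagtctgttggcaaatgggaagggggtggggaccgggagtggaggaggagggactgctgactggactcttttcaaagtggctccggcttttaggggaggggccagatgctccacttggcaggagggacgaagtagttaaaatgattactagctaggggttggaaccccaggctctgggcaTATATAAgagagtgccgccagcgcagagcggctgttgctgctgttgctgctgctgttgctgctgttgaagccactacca
Clec2d, chr6:129180365-129180664, plus strand: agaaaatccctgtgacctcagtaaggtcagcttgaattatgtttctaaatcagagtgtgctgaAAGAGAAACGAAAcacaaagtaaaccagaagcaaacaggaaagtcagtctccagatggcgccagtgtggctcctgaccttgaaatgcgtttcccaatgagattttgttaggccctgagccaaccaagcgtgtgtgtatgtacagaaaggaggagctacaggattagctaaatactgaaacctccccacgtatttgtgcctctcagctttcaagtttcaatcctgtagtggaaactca
Clec4a3, the second of 2 annotated starts, chr6:122952394-122952693, plus strand: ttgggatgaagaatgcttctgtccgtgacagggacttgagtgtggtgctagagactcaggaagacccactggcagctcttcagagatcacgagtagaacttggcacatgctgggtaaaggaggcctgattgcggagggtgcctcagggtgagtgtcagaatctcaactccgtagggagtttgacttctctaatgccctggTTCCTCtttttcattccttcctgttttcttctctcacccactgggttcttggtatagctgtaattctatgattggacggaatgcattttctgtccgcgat
Cd207, chr6:83677808-83678107, minus strand: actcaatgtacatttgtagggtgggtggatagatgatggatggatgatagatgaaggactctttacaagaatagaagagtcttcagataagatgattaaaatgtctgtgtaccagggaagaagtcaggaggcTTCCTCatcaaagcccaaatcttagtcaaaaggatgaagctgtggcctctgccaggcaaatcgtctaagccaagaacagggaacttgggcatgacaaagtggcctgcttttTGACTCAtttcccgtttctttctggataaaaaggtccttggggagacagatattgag
In Chodl the only match was TATATAA, which starts at -29 from the start site and was found in 3.24% of all 32851 promoters of this length. Clec2d had a pair of overlapping AANNGAAA matches, at -187 and -182, a motif found in 23.9% of all promoters. In Clec4a3 GAGGAA (28.3% of promoters) matched on the minus strand at -50, where the printed strand reads TTCCTC, and the first annotated start had no match to any of the 6 motifs. Cd207 had GAGGAA on the minus strand at -118 and TGANTCA (7.81% of promoters) at -7. The motifs were partly chosen with these sequences in view, and a match is a description of the letters, not evidence that a factor binds there.

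The values are log2 signals after RMA, a method that corrects background, equalises the distribution between arrays and summarises the probes of each probe set, so a difference of 1 means a doubling. The 1246 probe sets ranged from 1.9 to 14.17, and the median of an array lay between 5.15 and 5.34. A suffix s, x or a in the name of an Affymetrix probe set means that some probes may also match other transcripts, as for 19 of the 60 lectin genes. The lens galectin-related gene Grifin read above 10 on 3 arrays (normal 2 months replicate 2, mutant 2 months replicate 2 and normal 4 months replicate 1), and the fibroblast gene Dcn read above 6 on 3 (normal 2 months replicates 2 and 3 and mutant 4 months replicate 3). Of 6 rod markers only Gnb1, which is not specific to rods, could be named on the array, so the retina label could not be checked against rod genes.

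Most lectin genes read low. The mean signal of the 60 genes had a median of 3.48 and ran from 2.18 (Klra3) to 6.92 (Clec11a), and 38 of them lay in the lowest 25% of all probe sets, below 3.83. A further 15 lay between 3.83 and the median of all probe sets at 5.26, 7 lay above that median and 0 lay above the third quartile at 7.61. The 5 highest were Clec11a, Siglec15 (5.77), Mag (5.64), Clec18a (5.51) and Chodl (5.46). The signal of a probe set without any target is not given in the values used here, so a low value cannot be separated from no expression. Signals of different probe sets also depend on their probes, and their order is not an order of transcript abundance.

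Over the 4 ages together, 3 of the 60 genes were higher in mutant retinas (Chodl, Clec2d and Clec4a3), 5 were lower (Cd207, Siglec15, Cd209b, Asgr2 and Clec11a) and 52 did not pass (limma, Benjamini-Hochberg adjusted p under 0.05 over all 1246 probe sets, called changed hereafter). That is 13.3% of the lectin genes against 22.6% of all probe sets. By direction, 13.8% of all probe sets were higher and 8.83% were lower. Without adjustment, 14 of the 60 genes had p under 0.05, against 35.6% of all probe sets. The median difference, mutant minus normal, was -0.0361 for the lectin genes and -0.035 for all probe sets. It was below 0 for 42 of the 60 genes (62.1% of all probe sets), and 56 of the 60 genes differed by less than 0.2 in size.

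Genes of similar signal were called at similar rates. In the lowest quartile 3 of 38 lectin genes changed (7.89%), against 7.37% of all probe sets there. Between the first quartile and the median it was 2 of 15 (13.3%) against 17.7%, and above the median 3 of 7 (42.9%) against 32.7%. The spread between replicate arrays of a group had a median SD of 0.11 for the lectin genes and 0.13 for all probe sets.

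The counts and medians of the roles below stand beside these values over all probe sets: 13.8% higher, 8.83% lower and a median of -0.035 over the ages.

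**Figure D1:**
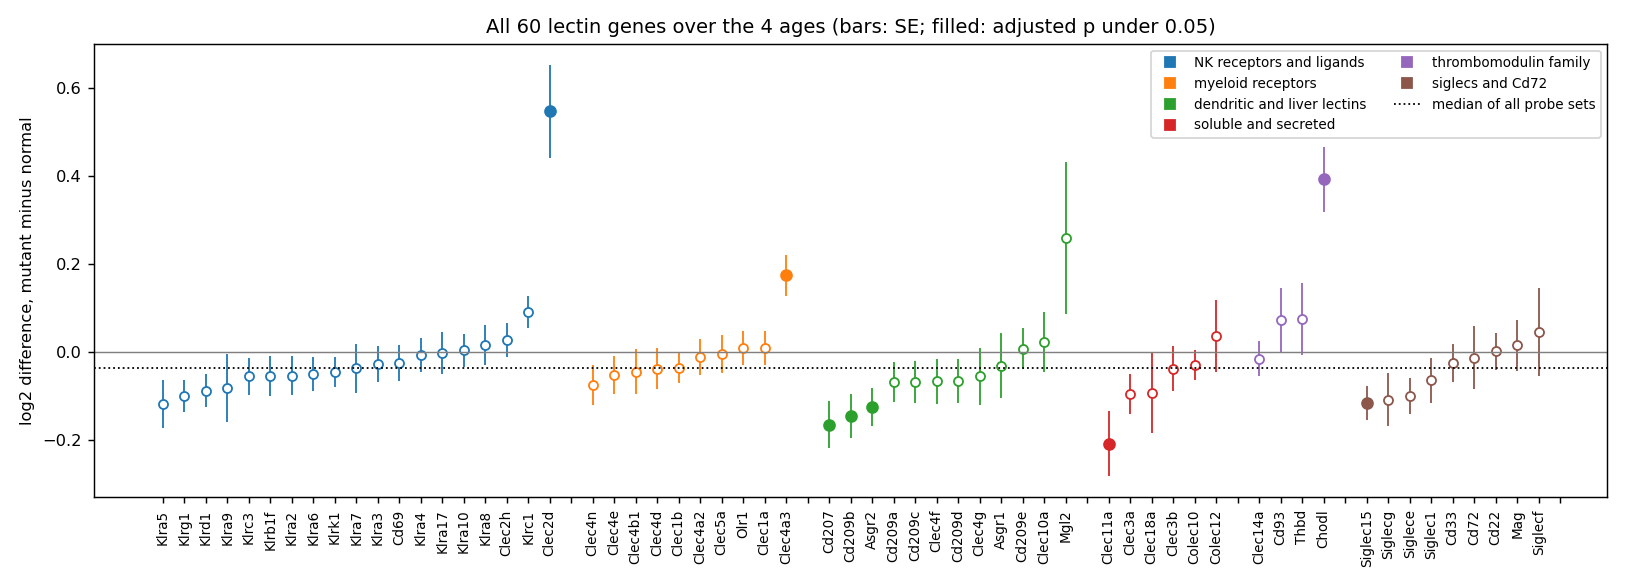
Difference in log2 signal, mutant minus normal over the 4 ages, for each of the 60 lectin genes, grouped by role (points: fitted difference of 12 mutant against 12 normal arrays; bars: SE; filled: adjusted p under 0.05; dotted: median of all probe sets, -0.04). Clec2d (0.55), Chodl (0.39) and Clec4a3 (0.17) stand above 0 and Cd207, Cd209b, Asgr2, Clec11a and Siglec15 lie between -0.21 and -0.12.

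Among the natural killer cell receptors and their ligands, 1 of 19 measured genes changed, upward, and the median difference of the 19 was -0.04. The changed gene was Clec2d, which encodes a ligand of an inhibitory natural killer receptor and is made by many cell types, not by natural killer cells alone. Clec2d read 4.02, 4.08 and 4.05 in normal and 4.21, 4.28 and 4.54 in mutant retinas at 1 month, so the groups did not overlap. At 2 months the normal arrays read 3.88, 4.01 and 4.29 and the mutant arrays 4.36, 4.78 and 4.12, which overlap. At 3 months they read 4.24, 4.02 and 3.91 against 4.48, 4.37 and 4.998, without overlap. At 4 months they read 3.86, 3.83 and 3.91 against 5.19, 5.16 and 4.18. The third mutant array at 4 months was thus about 1 log2 unit below the other two, yet above each normal array of that age.

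Over the ages Clec2d was higher by 0.55 ± 0.11 (SE, 12 arrays against 12), 1.46-fold, with an adjusted p of 0.00074 by limma and a 95% interval of 0.33 to 0.77. The differences by age were 0.29, 0.36, 0.56 and 0.98 from 1 to 4 months, and of these only that at 4 months passed (1.97-fold, limma adjusted p = 0.00388). With only the arrays of that age in the fit its adjusted p was 0.0539. A change of the difference with age was not established (limma F test, unadjusted p = 0.131, adjusted p = 0.471). Without mutant 4 months replicate 3, the Clec2d difference was larger at 4 months than at 1 month by 1.01 (limma adjusted p = 0.0339). Clec2d then passed also at 3 months (limma adjusted p = 0.0243). Its level in mutants was higher by 0.83 at 4 months than at 1 month (limma adjusted p = 0.0154). That array was the lowest of its group, so leaving it out raised the 4-month mean and narrowed the spread. With array weights, which kept all arrays, the difference was larger at 4 months than at 1 month by 0.86 (limma adjusted p = 0.0202). The level in mutants was then higher by 0.71 at 4 months (limma adjusted p = 0.00817). In the main fit these were 0.68 and 0.50 and did not pass (limma adjusted p = 0.385 and 0.262). The call thus depended on the setting, and a change with age is not established.

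None of the other 18 genes of this group passed. The mean signals of the 19 genes ran from 2.18 to 5.02 with a median of 2.69. Klrg1, an inhibitory receptor that binds cadherins, read 4.06 to 4.44 over the 24 arrays and differed by -0.10 ± 0.04 (limma adjusted p = 0.0518). It was called lower under 4 of 12 alternatives (lowest adjusted p 0.0305, with array weights) and without mutant 1 month replicate 3, mutant 2 months replicate 3, normal 1 month replicate 3, normal 2 months replicate 2 or normal 3 months replicate 3 (adjusted p 0.0144 to 0.0486). Several of the Ly49 receptors (Klra genes) are similar in sequence, and some of their probe sets may not tell them apart. For Klra10, Klra3 and Klra4 the 2 probe sets of a gene gave opposite signs (0.00 and -0.03, -0.03 and 0.02, -0.01 and 0.04), none of which passed, whereas both probe sets of Klra5 gave -0.12 (adjusted p = 0.128 and 0.0987 by limma). Of 7 further T and natural killer cell markers listed, 0 could be named on the array.

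The myeloid pattern and danger receptors, which include the Dectin and DCIR clusters, had 10 measured genes with 1 higher and 9 not passing, and a median difference of -0.02. Clec4a3, a DCIR-family receptor of myeloid cells, was the higher one. It read 2.59, 2.43 and 2.55 in normal against 2.63, 2.81 and 2.62 in mutant retinas at 1 month. At 2 months it read 2.64, 2.49 and 2.70 against 2.77, 2.55 and 2.72. The arrays separated at 1 month and overlapped at 2 months. At 3 months it read 2.59, 2.81 and 2.60 against 2.84, 2.90 and 3.07, and at 4 months 2.60, 2.49 and 2.75 against 2.78, 2.71 and 2.93, so only the 3-month arrays were again apart.

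The Clec4a3 difference over the ages was 0.17 ± 0.05 (1.13-fold, limma adjusted p = 0.0104). It was above 0 at each age (0.16, 0.07, 0.27 and 0.19) and passed at no single age, with the lowest adjusted p of 0.0641 at 3 months. At that age it passed with arrays centred on their medians (0.31, limma adjusted p = 0.0389), after another quantile normalisation (0.33, 0.0128) and with an intensity trend (adjusted p = 0.0489). Its mean signal, 2.69, lies at percentile 6.2 of all probe sets. A value that low cannot be separated from no expression, and the size of a fold there is uncertain. Clec4n, the Dectin-2 receptor for fungal mannans, had the next smallest p in this group and read 2.96 to 3.43, with a difference of -0.08 ± 0.05 that did not pass (limma adjusted p = 0.241). The Dectin-1 gene Clec7a was not analysed here.

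The list of thrombomodulin-type and endothelial C-type lectins had 5 measured genes: Thbd, Cd93, Clec14a, Chodl and Clec1a, which is also counted with the myeloid receptors. Chodl alone was called, upward, and the median difference of the 5 was 0.07. Thbd, Cd93, Clec14a and Clec1a differed by 0.08, 0.07, -0.01 and 0.01 and did not pass. Chodl encodes chondrolectin, a transmembrane C-type lectin known from muscle and motor neurons, so its rise is not a rise of thrombomodulin-type genes. In normal and mutant retinas it read 5.41, 5.20 and 5.36 against 5.58, 5.69 and 5.70 at 1 month. At 2 months the values were 5.17, 5.01 and 5.31 against 5.64, 5.26 and 4.97. The mutant arrays lay above the normal ones at 1 month and were mixed with them at 2 months. At 3 months they read 5.46, 4.88 and 5.33 against 5.92, 5.93 and 6.05, and at 4 months 5.20, 5.36 and 5.50 against 5.54, 5.78 and 5.82. Both late ages were without overlap.

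Chodl was higher over the ages by 0.39 ± 0.07 (1.31-fold, 95% interval 0.24 to 0.55, limma adjusted p = 0.00052). The single ages gave 0.33, 0.13, 0.75 and 0.36, of which 3 months passed (1.68-fold, limma adjusted p = 0.00311). Cd93, a receptor of endothelial and myeloid cells, read 3.40 to 4.23 and differed by 0.07 ± 0.07 (limma adjusted p = 0.484).

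**Figure D2:**
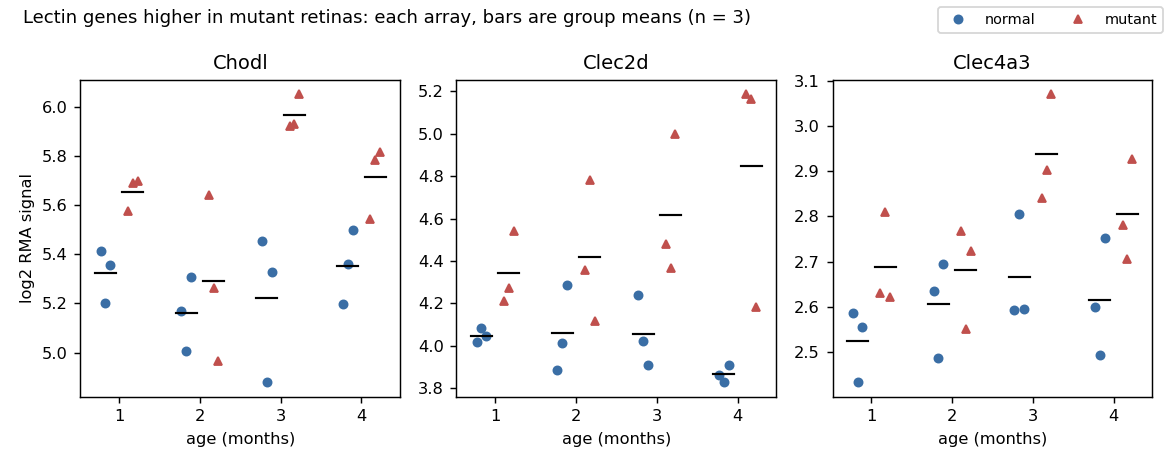
Log2 RMA signal of Chodl, Clec2d and Clec4a3 on each of the 24 arrays by age in months (blue circles: normal; red triangles: mutant; bars: group means, n = 3). Mutant arrays lie above normal ones at 1, 3 and 4 months for Chodl and Clec2d, and the 4-month mutant arrays of Clec2d spread from 4.18 to 5.19.

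Microglial markers rose in the same arrays. Of 12 microglia and macrophage markers 4 were measured (Csf1r, Cx3cr1, Adgre1 and Siglech) and all 4 were higher in mutant retinas, with their mean signal at 5.42 to 5.73 in normal and 5.99 to 6.92 in mutant arrays. Within the mutant groups Clec2d kept the order of the marker means at 2, 3 and 4 months but not at 1 month. Chodl and Clec4a3 kept it at no age. Orders of 3 arrays can match by chance, and how often other probe sets matched was not counted. At 1 month the marker means were 6.32, 6.06 and 6.08, and the first array had the lowest Clec2d (4.21) and Chodl (5.58) of its group. At 2 months they were 6.17, 6.46 and 5.99, and the third array had the lowest Clec2d (4.12) and Chodl (4.97). The second array of that age, with the highest marker mean, had the highest Clec2d (4.78) and the lowest Clec4a3 (2.55). At 3 months they were 6.29, 6.22 and 6.92, and the third array had the highest Clec2d (4.998), Chodl (6.05) and Clec4a3 (3.07). At 4 months they were 6.62, 6.47 and 6.29, where Clec2d read 5.19, 5.16 and 4.18 but Chodl 5.54, 5.78 and 5.82, and Clec4a3 was highest (2.93) on the array with the lowest marker mean. Some markers of other cells were also called higher in mutants. Of 6 measured endothelial markers Mcam and Cd34 were, and the lectin genes Clec14a, Cd93 and Thbd among the 6 were not. The mean of the 6 read 4.501 to 4.78 in normal and 4.57 to 5.10 in mutant arrays. At 2 months its mutant range (4.57 to 4.64) lay within the normal one (4.501 to 4.68). Of 3 measured Muller glia markers Cd44 and Vcam1 were called higher, with means of 7.06 to 8.28 in normal and 7.75 to 8.81 in mutant arrays. Called lower were Gnb1, Cd207, Asgr2 and 1 of 3 platelet markers. The part of these cells in the differences was not tested, and in bulk RNA more cells of a type and more RNA per cell cannot be told apart.

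**Figure D3:**
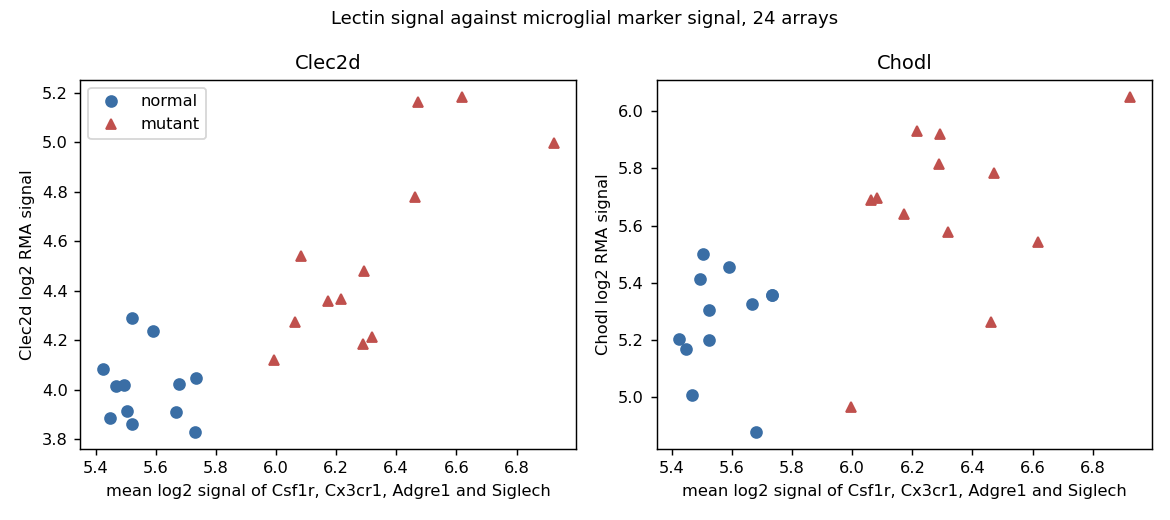
Log2 RMA signal of Clec2d and Chodl on each array against the mean log2 signal of Csf1r, Cx3cr1, Adgre1 and Siglech on that array (blue: normal; red: mutant). The marker means of the 12 mutant arrays (5.99 to 6.92) lie apart from those of the 12 normal arrays (5.42 to 5.73).

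The dendritic cell and liver endocytic lectins had 12 measured genes, of which 0 were higher, 3 were lower and 9 did not pass, with a median difference of -0.07 over the ages and -0.16 at 3 months, where the median of all probe sets was -0.0565. All 3 differences were small. Cd207 encodes langerin, the endocytic receptor of Langerhans cells and some dendritic cells. It read 5.65, 5.34 and 5.38 in normal and 5.12, 4.97 and 5.07 in mutant retinas at 3 months, and 5.44, 5.31 and 5.37 against 5.27, 5.18 and 5.08 at 4 months, both without overlap. At 1 month it read 5.24, 4.95 and 5.29 against 5.08, 5.35 and 5.01, and at 2 months 5.14, 5.42 and 5.26 against 5.13, 5.30 and 5.27, with the groups mixed at both ages. The difference was -0.16 ± 0.05 over the ages (limma adjusted p = 0.0287) and -0.40 ± 0.11 at 3 months (limma adjusted p = 0.0196). Of 5 dendritic cell markers 4 were measured (Flt3, Xcr1, Cd209a and Cd207), and Cd207 alone of these was called.

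Cd209b, a DC-SIGN homologue of splenic marginal zone macrophages, differed by -0.15 ± 0.05 (limma adjusted p = 0.0385). At 3 months its normal arrays read 3.82, 4.03 and 3.80 and its mutant arrays 3.39, 3.33 and 3.65, a difference of -0.43 ± 0.10 (limma adjusted p = 0.00939). At 1 month it read 3.75, 3.67 and 3.59 against 3.72, 3.66 and 3.70, at 2 months 3.73, 3.67 and 3.75 against 3.58, 3.46 and 3.76, and at 4 months 3.80, 3.71 and 3.93 against 3.93, 3.72 and 3.59. The groups were apart at 3 months and overlapped at the other ages. The second probe set of Cd209b gave -0.08 over the ages and -0.14 at 3 months and did not pass (limma adjusted p = 0.186 and 0.275). The 2 probe sets thus had the same sign but differed in the call.

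Asgr2, a subunit of the hepatic asialoglycoprotein receptor, read 3.53 to 3.84 on the 12 normal and 3.32 to 3.68 on the 12 mutant arrays. Its difference was -0.13 ± 0.04 over the ages (limma adjusted p = 0.0419), from -0.09 to -0.18 at the single ages. None of the single ages passed. Asgr2 was listed with Asgr1 and Clec4f among liver lectins not expected in retina, and those other genes did not pass. Its mean signal, 3.56, lies at percentile 19.6 of all probe sets, where a low value cannot be separated from no expression.

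Of the soluble collectins and secreted C-type lectins 1 of 6 measured genes was lower, with a median difference of -0.06. Clec11a, a secreted growth factor of haematopoietic and bone-forming cells, was the brightest lectin gene. It read 7.12, 7.00 and 7.02 in normal against 6.90, 7.08 and 6.70 in mutant retinas at 1 month, and 7.10, 7.26 and 6.99 against 7.03, 6.94 and 7.05 at 2 months, overlapping at both ages. At 3 months it read 7.20, 7.13 and 6.96 against 6.86, 6.60 and 6.86, without overlap. At 4 months, where 6.96, 6.56 and 6.98 faced 6.84, 6.77 and 6.16, the groups again overlapped. The difference was -0.21 ± 0.07 (limma adjusted p = 0.0464), and without the lowest array (mutant 4 months replicate 3) it was -0.15 with an adjusted p of 0.0665. Clec3a, a tetranectin relative of cartilage, read 3.32 to 3.95 and differed by -0.09 ± 0.04 (limma adjusted p = 0.131). At 4 months its difference was -0.27 (limma adjusted p = 0.0538), and it passed at that age without mutant 2 months replicate 3, normal 1 month replicate 3, normal 3 months replicate 2 or 3 or normal 4 months replicate 2 (adjusted p 0.0306 to 0.0462).

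Clec18a, a secreted lectin with a CAP domain, differed by -0.09 ± 0.09 (limma adjusted p = 0.485). It read 6.03 and 6.37 on normal 2 months replicates 2 and 3 and at most 5.72 on the other 22 arrays. On those arrays Dcn, a gene of fibroblasts, read 6.45 and 6.90. On the third array with Dcn above 6, mutant 4 months replicate 3 (6.51), Clec18a read 5.55, within the range of the others. The part of such tissue was not tested. With normal 2 months replicate 1 left out, so that only these arrays stood for the normal 2-month group, Clec18a was called lower over the ages (-0.17, limma adjusted p = 0.0451), lower at 2 months (-0.75, limma adjusted p = 0.00273) and called in the F test for a change with age (adjusted p = 0.0188).

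Of the siglecs and Cd72, 1 of 9 measured genes was lower and 8 did not pass, with a median difference of -0.02. Siglec15, a sialic acid receptor of osteoclasts and macrophages, was the lower gene. It read 5.88, 5.79 and 5.82 against 5.73, 5.77 and 5.72 at 1 month, and 5.82, 5.69 and 5.82 against 5.82, 5.78 and 5.97 at 2 months. It was apart at 1 month and mixed at 2 months. At 3 months it read 5.84, 6.06 and 5.75 against 5.69, 5.56 and 5.53, and at 4 months 5.77, 5.90 and 5.82 against 5.74, 5.65 and 5.62, both without overlap. The difference was -0.12 ± 0.04 over the ages (limma adjusted p = 0.0364) and -0.29 ± 0.08 at 3 months (limma adjusted p = 0.0209). Siglece, an inhibitory siglec of myeloid cells, read 4.60 to 4.98 and differed by -0.10 ± 0.04 (limma adjusted p = 0.0905, but 0.0203 with array weights and 0.0145 without mutant 2 months replicate 3).

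Mag, the myelin-associated glycoprotein of oligodendrocytes and the only oligodendrocyte marker measured, read 5.33 to 5.94 and gave a difference of 0.02 ± 0.06 with a 95% interval of -0.11 to 0.14 (limma adjusted p = 0.865). Its mutant arrays were above the normal ones at 1 month (5.90, 5.78 and 5.74 against 5.70, 5.50 and 5.63), a difference that was not called at any age.

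**Figure D4:**
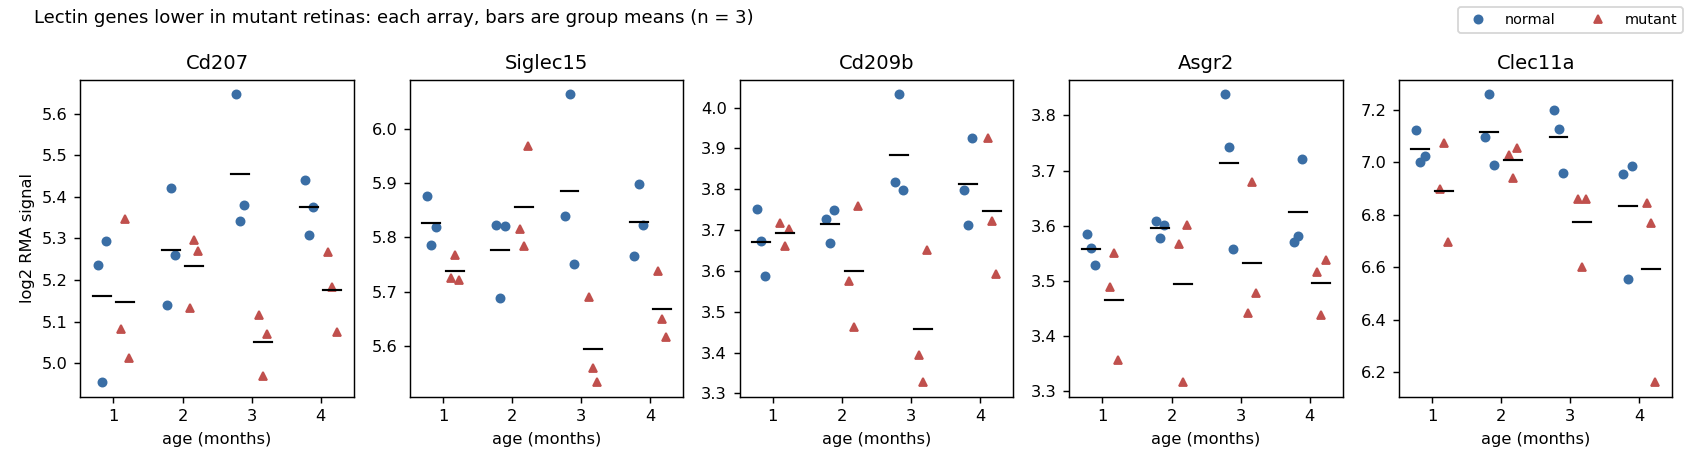
Log2 RMA signal of Cd207, Siglec15, Cd209b, Asgr2 and Clec11a on each of the 24 arrays by age in months (blue circles: normal; red triangles: mutant; bars: group means, n = 3). The group means lie furthest apart at 3 months in each panel.

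The 5 lower genes were close to the threshold. Left out in turn, each of the 24 arrays except mutant 2 months replicate 3 and normal 3 months replicate 3 ended at least 1 of these 5 calls: 16 did so for Asgr2, 15 each for Cd209b, Clec11a and Siglec15, and 9 for Cd207. The count of lectin genes called, 8 with all arrays, was 3 without mutant 1 month replicate 1 or normal 1 month replicate 1. It was 4 without mutant 1 month replicate 3 (3 of the 8, with Klrg1 added), mutant 2 months replicate 1 or 2, mutant 3 months replicate 2, mutant 4 months replicate 3, normal 3 months replicate 2 or normal 4 months replicate 3. It was 5 without mutant 4 months replicate 2, normal 1 month replicate 2, normal 2 months replicate 3 or normal 3 months replicate 1, and also without normal 1 month replicate 3 (Klrg1 added) or normal 2 months replicate 1 (Clec18a added), where 4 of the 8 were kept. Without mutant 2 months replicate 3 it was 12, the 8 with Cd209a, Klrd1, Klrg1 and Siglece. With each array centred on its median, 4 genes were higher (Klrc1 joined) and 1 was lower instead of 3 and 5, and Cd207 alone of the 5 remained. Without the 3 arrays with Grifin above 10, 0 of the 5 passed (adjusted p 0.053 to 0.17) while the 3 higher genes did. With array weights all 8 stayed and Klrd1, Klrg1 and Siglece were added, which gave 8 lower genes. The 3 higher genes stayed called with any of the 24 arrays left out.

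By age, 0 of 60 lectin genes were called at 1 month (0.321% of all probe sets) and 0 at 2 months (3.45%), by limma. At an unadjusted p under 0.05 there were 2 genes at 1 month (9.23% of all probe sets) and 4 at 2 months (14.4%). At 3 months 4 were called (12.04% of all probe sets): Chodl higher (6.66%), and Cd209b, Cd207 and Siglec15 lower (5.38%). At 4 months it was Clec2d alone (12.9%). Without adjustment 15 genes had p under 0.05 at 3 months (29.7%) and 5 at 4 months (24.4%). Without mutant 3 months replicate 2 the count at 3 months was 1, and without mutant 3 months replicate 3 or normal 3 months replicate 2 it was 2. With only the 3-month arrays in the fit Chodl alone was called, and Cd207, Siglec15 and Cd209b had adjusted p of 0.0769, 0.143 and 0.0832.

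The arrays of mutant and normal retinas did not overlap for 10 lectin genes at 1 month (22.1% of all probe sets), 4 at 2 months (17.4%), 17 at 3 months (32.6%) and 14 at 4 months (30.02%). At 3 months 14 of the 17 were lower in mutants, and 19.4% of all probe sets were lower without overlap at that age. Chodl, Clec2d and Siglec15 were apart at 3 or more ages (8.91% of all probe sets), and 26 of the 60 genes were apart at no age (36.4% of all probe sets). The difference had 1 sign at all 4 ages for 10 genes (32.02% of all probe sets). In 4 it was above 0 (Chodl, Clec2d, Clec4a3 and Klrc1; 14.7%) and in 6 below 0 (Asgr2, Cd207, Clec11a, Klra2, Klra5 and Klrg1; 17.3%).

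**Figure D5:**
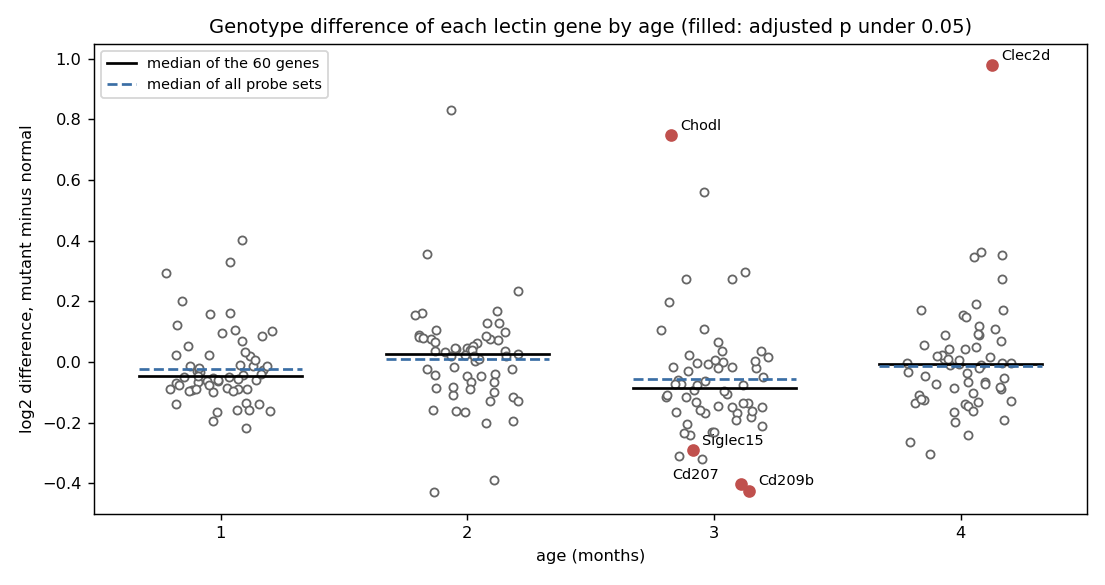
Difference in log2 signal, mutant minus normal, of each of the 60 lectin genes at 1, 2, 3 and 4 months (red and named: adjusted p under 0.05; black line: median of the 60 genes; dashed line: median of all 1246 probe sets). The median of the 60 genes was -0.05, 0.02, -0.08 and -0.01, and that of all probe sets was -0.02, 0.01, -0.06 and -0.01.

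Whether the genotype difference changed with age was asked with limma's F test, which called 0 lectin genes (0.321% of all probe sets), with 6 at an unadjusted p under 0.05 (14.4%). The smallest of these, picked out after its value was seen, was Cd22, an inhibitory siglec of B cells (unadjusted p = 0.0119, adjusted p = 0.222). Its mutant arrays read 5.20, 5.27 and 5.20 below normal arrays of 5.46, 5.43 and 5.43 at 1 month, and 5.28, 5.50 and 5.71 against 5.21, 5.27 and 5.30 at 2 months. The difference was thus -0.22 at 1 month and 0.23 at 2 months and did not pass at either age. It was called at 2 months without mutant 2 months replicate 1, the lowest mutant array of that age (0.34, limma adjusted p = 0.0241). At 1 month it was called with array weights (-0.22, limma adjusted p = 0.0263). Setting the genotype difference of the oldest age against that of the youngest, limma called 0 genes (0.241% of all probe sets), with 2 at an unadjusted p under 0.05 (11.4%).

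Within a genotype, 4 months minus 1 month gave 0 lectin genes in normal retinas (0.00% of all probe sets) and 0 in mutant retinas (2.65%) by limma. At an unadjusted p under 0.05 there were 2 genes (7.38%) and 4 genes (15.1%). The most variable lectin gene was Mgl2, a galactose-binding macrophage lectin with a possibly shared probe set, also picked out after its values were seen. It ran from 3.21 to 5.28 with an SD within groups of 0.47, and in mutants its 4-month arrays (3.53, 4.51 and 3.29) read -1.09 against its 1-month arrays (4.40, 4.91 and 5.28), a difference that did not pass (limma adjusted p = 0.103). Without mutant 4 months replicate 2, the highest of these 4-month arrays, it was -1.46 (limma adjusted p = 0.0485). Colec12, a scavenger receptor of the collectin family, read 0.53 higher in mutants at 4 months than at 1 month (limma adjusted p = 0.0927, and 0.0479 without normal 2 months replicate 1). That value comes from a possibly shared probe set, and the second probe set of Colec12 gave 0.14 (adjusted p = 0.442).

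Other genes of these pathways give a comparison outside the family. Over all probe sets 13.8% were higher and 8.83% lower over the ages, with a median difference of -0.035. Of 32 listed genes that carry a C-type lectin domain but other symbols, with Siglech added, 30 were measured. Of these, 3 were higher, 2 lower and 25 not passing (median difference -0.06). Their mean signals ran from 2.66 to 9.92 with a median of 4.28. Between the first quartile and the median, the band of that value, 17.7% of all probe sets were called. The list also holds genes outside that band, so the rate is not one for the whole list. Pla2r1, the phospholipase A2 receptor, was lower by -0.55 ± 0.05 (limma adjusted p = 1.57e-07). Siglech, a microglial siglec, was higher by 0.40 ± 0.07 (limma adjusted p = 0.000146). The basement membrane gene Frem1 was higher by 0.23 and Atrnl1, an attractin relative, by 0.16, while Prg2, the eosinophil major basic protein, was lower with -0.12. Of 15 signalling partners of lectin receptors such as Syk and Tyrobp, 0 could be named on the array. Of 30 genes that make or remove sialic acid, the ligand of siglecs, 27 were measured, and 7 were higher, 4 lower and 16 not passing (median difference 0.06). Their mean signals ran from 2.78 to 11.01 with a median of 7.60. Of all probe sets above the median 32.7% were called, a rate that does not cover the dimmer genes of this list. Among the 27, St8sia3 (0.44), which extends sialic acid chains, and St3gal4 (0.32) were higher and St8sia1 (-0.43) and St6galnac2 (-0.30) lower.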

How the data were processed

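Total RNA of 24 retina samples was labelled with biotin and hybridised to Affymetrix arrays. The authors deposited log2 signals made with RMA, per the submitters' processing notes; the genome build and the version are not given in the sources used here. The precision is limited by the number of arrays, 3 per group. Of 1246 probe sets, 963 were named through RefSeq accessions (909 genes), and the 283 without a name include 261 UCSC identifiers. All probe sets were fitted in limma 3.58.1 (R 4.3.3) with 8 group means, 16 residual degrees of freedom, two-sided tests and Benjamini-Hochberg adjustment within each contrast. The fit was tested on simulated data, and each result was recomputed under other normalisations, filters, probe-set rules, weights and sets of arrays. Named with values were each lectin gene called in a contrast, the 5 brightest and the 2 with the smallest p of each role. So were genes whose probe sets differ in sign or call and up to 4 of each outside list by smallest p, besides the genes said to be picked out later. The members, lists and rules were chosen with earlier results of these data known. Same-numbered arrays of the 2 genotypes were checked for pairing, by correlating their deviations from group means. The correlation was over 0.1 in 3 of 12 pairs, all at 2 months (r = 0.325, 0.662 and 0.245 for replicates 1, 2 and 3). At the other ages r ran from -0.03 to 0.083. Whether the 2-month arrays were paired is not known. The labels do not say that the numbers pair arrays, so the main fit used no block. The calls with a block are given below.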

Additional observations from a re-analysis of the deposited data

How the results depend on the processing

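Chodl and Clec2d kept their direction and their call over the ages under every alternative in which they were tested and with each array left out, and Clec4a3 did so except at adjusted p under 0.01. The count called over the ages (8) was 5 with arrays centred on their medians, 3 with probe sets below the median left out (7 lectin genes tested, 3 of the 8 among them, all kept), 4 with the replicate block, 3 without the arrays with Grifin above 10 and 2 at adjusted p under 0.01; with 1 array left out it was 3 to 12. It was 11 with array weights (8 lower), 10 with Grifin and Dcn as covariates and 9 with probe sets averaged per gene. With the replicate block Cd207 was the only lower gene, and Asgr2, Cd209b, Clec11a and Siglec15 had adjusted p of 0.0541, 0.0735, 0.0751 and 0.0673. Quantile normalisation gave 4 higher and 3 lower. At 3 months (4 called) the count was 2 with dim probe sets left out (7 tested), 1 with only the arrays compared and 2 at adjusted p under 0.01, and 1 to 5 with 1 array left out; it was 5 when centred, 6 after quantile normalisation and 5 with an intensity trend. At 4 months (1 called) it was 3 after quantile normalisation, 0 with dim probe sets left out (Clec2d is then not tested), 2 with an intensity trend, 3 with array weights, 0 with only the arrays compared and 2 without the Grifin arrays, and 1 to 2 with 1 array left out. Array weights gave 1 gene at 1 month (Cd22) and 2 for the change of the difference from 1 to 4 months (Clec2d and Klrc3). They gave 1 for each genotype over age (Cd93 in normal, Clec2d in mutant). Otherwise 0 were called in these contrasts. With 1 array left out these contrasts, 2 months and the F test gave 0 to 1, and 1 month and normal age 0. Klra10 turned sign with shared probe sets left out (-0.0309) or averaged (-0.0134), Klra4 when centred (0.0192), quantile normalised (0.0064), with shared probe sets left out (0.0432) or averaged (0.0184), and Mag when quantile normalised (-0.0203) or weighted (-0.0105). With 1 array left out they ran from -0.0128 to 0.0195, -0.0253 to 0.0123 and -0.007 to 0.0468. The causes were not tested. The block could not be fitted for change with age within a genotype, and the fit of only the arrays compared is not defined for the pooled difference or the F test. Array background is not known, which limits every gene of low signal.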
